A study of Mus musculus with 4 samples.

Results

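The suppressors of cytokine signalling (SOCS proteins) are a family of 8 genes, Socs1 to Socs7 and Cish, and all 8 were found by symbol among 21887 protein-coding genes of the RefSeq table. They were taken by name as a whole family, with earlier results of these data known. Trimethylated lysine 4 of histone H3 (H3K4me3), found at promoters in use or ready for use, and trimethylated lysine 9 (H3K9me3), typical of heterochromatin, were mapped by chromatin immunoprecipitation and sequencing. The cells were macrophages from the peritoneal cavity of C57BL/6 mice aged 8 weeks, drawn there with thioglycollate broth and left to adhere in culture. All received thioglycollate, and after adhering they were kept for 24 h with lipopolysaccharide (LPS), the bacterial cell wall component sensed by Toll-like receptor 4, or with phosphate-buffered saline (PBS) as the control. Each mark was mapped under each treatment in 1 library, giving 4 groups, and the labels do not say how many mice were pooled.

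SOCS proteins are brakes on cytokine signalling. A cytokine receptor activates its bound Janus kinases, these activate STAT transcription factors, and STATs switch on, among other genes, Socs1, Socs2, Socs3 and Cish, whose products then act back on the receptor. Every SOCS protein has an SH2 domain that binds phosphorylated tyrosine and a SOCS box that recruits Elongin B, Elongin C and Cullin 5 to mark bound proteins for degradation. In macrophages Socs1 is known for restraining interferon gamma responses and Socs3 for restraining signals of interleukin 6.

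All 8 genes carried H3K4me3 in both libraries, against 60.1% of all protein-coding genes. No member had a difference of 2-fold or more at its gene end. Among promoters whose libraries summed to 100 tags or more, 0.37% were that much higher in LPS and 3.65% that much lower. By tags Cish stood highest in LPS relative to PBS and Socs5 lowest, whereas per covered kb Socs5 was highest and Socs1 lowest. The peaks also differed in outline, by edges that carry no interval. LPS peaks reached further upstream at Socs1 and further into the gene at Cish, and PBS peaks reached further upstream at Socs3, Socs5 and Cish. The upstream PBS peaks of Socs5 and Cish had low scores from the authors' caller. Beside Socs3, 2 regions upstream of the gene had over 2-fold more H3K4me3 tags in LPS, though less than 2-fold more per covered kb. H3K9me3 was listed on 4 of the 8 gene bodies in LPS and on 2 in PBS, in small peaks. Among all genes in the length range of the members the shares were 19.3% and 15.8%, and with so few members these counts cannot be read as a difference.

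With 1 library per group there is no replicate check and no test between treatments, so every ratio compares 2 libraries. Intervals are exact 95% Clopper-Pearson intervals and cover counting error only. After the caller's filter the H3K4me3 libraries held 26748289 tags (LPS) and 29681491 (PBS), those of H3K9me3 28586946 (LPS) and 27727997 (PBS), and no control library was used for calling. Ratios are log2 of LPS over PBS tags per filtered tag, so a negative value means fewer tags in LPS. A peak missing from a list was below what the caller lists, and the mark may still be there. Of 11 macrophage markers, 9 had a gene-end H3K4me3 peak in both libraries, and Cd163 had none in either. Spi1 had 1 in LPS only (503 tags). For other cells of a peritoneal lavage the numbers were 4 of 12 T cell, 4 of 10 B cell, 0 of 10 neutrophil and 4 of 13 mesothelial or fibroblast markers. Over the whole lists the markers summed to 549 tags in LPS and 815 in PBS for T cells, 368 and 581 for B cells, 77 and 19 for neutrophils, and 589 and 932 for mesothelium and fibroblasts, with single genes between 0 and 256 tags in LPS. The T cell genes Cd3e, Cd8a and Lck, the B cell gene Ms4a1 and the neutrophil genes Ly6g and Elane were at 0 in both libraries. Others carried the mark, among them Cd4 (216 tags in LPS, 277 in PBS) and Tcf7 (254 and 282) of the T cell list, Cd79a (256 and 354) of the B cell list and Camp (56, LPS only) of the neutrophil list. The gene Arhgef1 had the same tags and covered lengths as Cd79a, so this peak cannot be assigned to Cd79a alone. It makes up most of the B cell sums. Of the mesothelial and fibroblast markers, 4 were listed in PBS only, Upk3b (101 tags), Col1a2 (79), Krt8 (70) and Krt19 (33), and 0 in LPS only. Pdgfrb, a gene of fibroblasts and pericytes, went against the sum of this list with 188 tags in LPS and 62 in PBS. How far such cells contribute to the values below was not tested, and in bulk chromatin a different mix of cells and a different mark within cells cannot be told apart.

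A gene end was scored by the peaks that touch the window within 1 kb of it, and the end with more tags was used. By this measure 8 of 8 members were listed in both libraries, against 60.1% of all protein-coding genes. Tags in these peaks ran from 203 at Socs4 to 698 at Socs2 in LPS and from 257 at Cish to 884 at Socs2 in PBS. The median member had 443.5 tags in LPS and 635 in PBS, where the median over 13151 promoters listed in both libraries was 200 and 289. Socs2, Socs1, Socs3 and Socs7 had more tags than 96.6% to 98.6% of these promoters in LPS, whereas Socs4 stood near the middle with 50.8%. The plot of peaks along each gene shows where they lie.

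**Figure D1:**
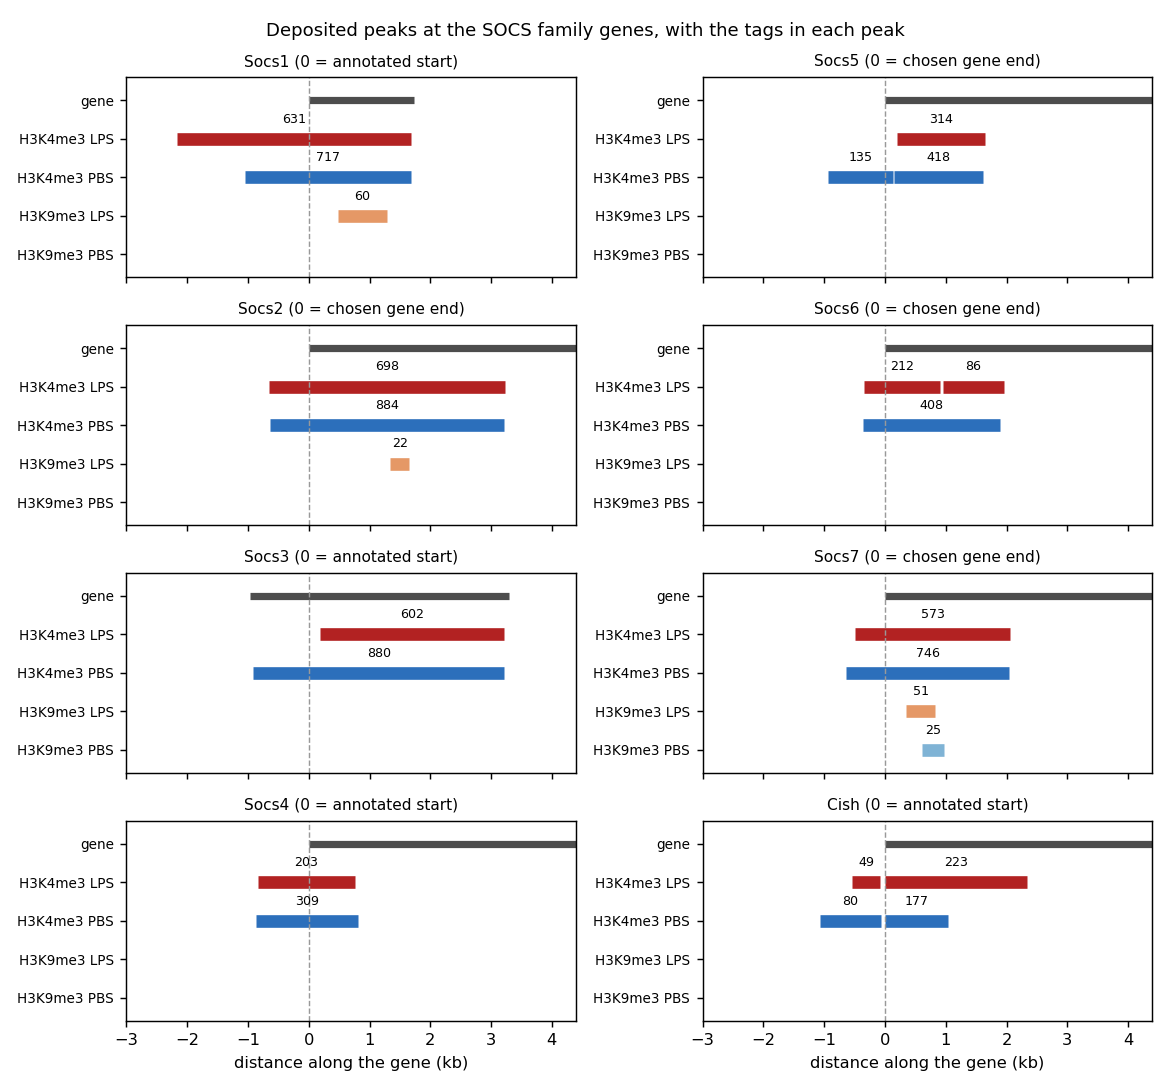
Peaks of the 4 deposited lists at each SOCS family gene, drawn along the gene with distance in kb on the x axis, 0 at the annotated start (Socs1, Socs3, Socs4, Cish) or at the chosen gene end (the others), and the tags of each peak above its bar. The LPS H3K4me3 peak of Socs1 starts 1127 bp further upstream than the PBS peak, and the H3K4me3 of Cish is split in 2 peaks in both libraries.

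Socs1 and Socs3 are the members that also inhibit Janus kinases directly, through a short region before the SH2 domain. Socs1 lies at chr16:10783808-10785536 (build mm10) and is only 1.73 kb long. It had 1 H3K4me3 peak in each library, with 631 tags in LPS and 717 in PBS, which is 23.6 and 24.2 CPM (tags per 1000000 filtered tags). The libraries were therefore nearly level, with a log2 ratio of -0.03 (-0.19 to 0.12), and 89.4% of promoters had a lower ratio. The peak covered 3.86 kb in LPS and 2.73 kb in PBS. Both peaks ended at about the same place in the gene, 1687 and 1681 bp past the start, so nearly the whole difference in length lay upstream, where the LPS edge was at -2174 bp and the PBS edge at -1047 bp. As the longer LPS peak held fewer tags, its density was lower, with 163.4 tags per kb against 262.7, and the ratio per covered kb was -0.54. Only 5.24% of promoters had a lower ratio per covered kb. The next genes upstream are Tnp2, 2399 bp away, and the protamine genes Prm3, Prm2 and Prm1, which package sperm DNA, and the LPS peak ended before Tnp2.

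Socs3 lies at chr11:117966079-117970336. Its peak held 602 tags in LPS and 880 in PBS, or 22.5 and 29.6 CPM. PBS was higher, with a log2 ratio of -0.40 (-0.55 to -0.25), close to the median promoter. The annotated start of Socs3 is 970 bp inside its outer end. In PBS the peak ran across this start, from -911 to 3218 bp, whereas in LPS it began at 185 bp, past the start, and ran to 3208 bp. Both libraries thus covered the body of the gene to almost the same point. Since the LPS peak was shorter (3.02 against 4.13 kb), the order of the libraries changed with the measure, and the ratio per covered kb was 0.05. The end that the 1 kb rule chose is the far end of this short gene, where both peaks reach, and a window at the annotated start took the same peaks.

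Cish and Socs2 act mainly by binding phosphorylated receptors, Cish on those that use STAT5 and Socs2 on the growth hormone receptor. At Cish (chr9:107296659-107302784) both libraries listed 2 peaks that flank the annotated start. Together they held 272 tags in LPS and 257 in PBS, or 10.2 and 8.66 CPM. LPS was the higher library here, with a log2 ratio of 0.23 (-0.02 to 0.48), above that of 96.3% of promoters. The upstream and downstream peaks went in opposite directions. The upstream peak had 49 tags in LPS and 80 in PBS (-0.56, -1.10 to -0.03). The downstream peak had 223 tags over 2342 bp in LPS and 177 over 1028 bp in PBS (0.48, 0.19 to 0.78), so it reached 1313 bp further into the gene in LPS. Upstream the PBS peak reached further, to -1070 bp against -542 bp in LPS. Both upstream peaks were weak by the authors' score (79.1 in LPS, 57.7 in PBS). With peaks of score 100 or more only, both dropped out and the ratio at Cish was 0.48. Per covered kb the upstream peak gave 0.54 and the downstream peak -0.70, the opposite signs, and the 2 together -0.24.

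Socs2 lies at chr10:95383903-95417321 and had the most H3K4me3 of the family. The peak at its higher end held 698 tags in LPS and 884 in PBS, or 26.1 and 29.8 CPM. PBS was slightly higher, with a log2 ratio of -0.19 (-0.34 to -0.05) and a nearly equal ratio per covered kb (-0.20). Its outline was the same in both libraries to within 17 bp at either edge, 3.89 kb in LPS and 3.86 kb in PBS. The end of Socs2 lies 54 bp from the non-coding gene 5730420D15Rik, and the peak also covers the non-coding gene Gm33230, so it cannot be assigned to Socs2 alone.

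The promoter sequences of Socs1, Socs3, Socs4 and Cish were taken from RefSeq (GRCm38.p6), which held 4 of the 8 members, and they are shown because the peaks of Cish break within the stretch and those of Socs3 differ in whether they cover it. Capitals mark matches to 2 motifs searched on both strands, the STAT site TTCNNNGAA and the interferon response element core (GAAA, any 2 bases, GAAA). Positions count from 0 at the first transcribed base, and sequences run 5′ to 3′ along the gene. The stretches are chr16:10785537-10785656 (minus strand, -120 to -1) for Socs1, chr11:117969427-117969546 (minus strand, -180 to -61) for Socs3, chr9:107296582-107296678 (plus strand, -77 to 19) for Cish and chr14:47276800-47276919 (plus strand, -120 to -1) for Socs4.
Socs1: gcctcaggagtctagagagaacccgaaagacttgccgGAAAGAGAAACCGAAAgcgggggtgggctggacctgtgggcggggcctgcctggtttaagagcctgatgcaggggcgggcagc
Socs3: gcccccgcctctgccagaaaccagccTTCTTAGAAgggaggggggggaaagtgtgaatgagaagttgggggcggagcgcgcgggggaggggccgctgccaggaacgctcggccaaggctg
Cish: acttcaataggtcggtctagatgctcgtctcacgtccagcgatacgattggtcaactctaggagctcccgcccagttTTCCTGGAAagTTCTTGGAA
Socs4: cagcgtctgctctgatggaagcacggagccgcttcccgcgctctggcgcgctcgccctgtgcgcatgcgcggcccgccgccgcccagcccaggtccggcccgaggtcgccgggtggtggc

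At Cish the stretch begins at the first base of the gap between the LPS peaks. That gap spans 78 bp, from -77 to 0, and the PBS gap 74 bp, from -72 to 1. The 2 STAT motif matches of Cish lie at 0 to 8 and 11 to 19, at the edge of the downstream peak, so that the first match is only partly inside a peak and the other lies inside it in both libraries. The match of Socs3, at -154 to -146, lay inside the PBS peak and outside the LPS peak, which began further downstream. In Socs1 the 2 matches to the interferon response element core overlap each other, from -83 to -68, and lay inside the peak of both libraries. Over 32851 promoter windows from 250 bases before to 50 after a start, 8.30% held a match to TTCNNNGAA and 3.44% to the interferon response element core. No match to either motif was found in the Socs4 window, nor to a STAT site with 4 bases between TTC and GAA (6.95% of promoters) or the NF-kB consensus (8.46%) in any of the 4. The Sp factor box GGGCGG was matched in all 4 windows and in 35.7% of all promoters. CG dinucleotides numbered 34 in the window of Socs4, 31 in Socs3, 18 in Socs1 and 11 in Cish, against a median of 7. Matches describe the letters and do not show that a factor binds.

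Socs4, Socs5, Socs6 and Socs7 have long regions before the SH2 domain. Socs4 and Socs5 have been linked to the epidermal growth factor receptor, and Socs6 and Socs7 to receptor tyrosine kinases and insulin signalling. Socs4 (chr14:47276920-47296102) had the lowest LPS level of the family. Its peak held 203 tags in LPS and 309 in PBS, or 7.59 and 10.4 CPM. PBS was higher (log2 ratio -0.46, -0.72 to -0.20), by about as much as at the median promoter, and the edges lay within 48 bp of each other. The start of Socs4 is 59 bp from Wdhd1, a gene of DNA replication that runs away from it, and the peak covers both.

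Socs5 (chr17:87107278-87137647) had the lowest ratio. The LPS library listed 1 peak of 314 tags at the lower end, and the PBS library 2 peaks of 135 and 418 tags, or 11.7 and 18.6 CPM in all. PBS was higher, with a log2 ratio of -0.67 (-0.87 to -0.46), and 14.0% of promoters had a lower ratio. The PBS peak without an LPS counterpart lay from -939 to 132 bp of the gene end, where the non-coding gene Gm30510 overlaps Socs5. That peak was weak by the authors' score (67.2). With peaks of score 100 or more only, it dropped out and the ratio was -0.26. Per covered kb the sign changed, to 0.15, and 92.3% of promoters had a lower value.

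Socs7 (chr11:97362292-97398542) had 573 tags in LPS and 746 in PBS, or 21.4 and 25.1 CPM. PBS was slightly higher (log2 ratio -0.23, -0.39 to -0.07, and -0.16 per covered kb). Its density was the highest of the family, with 224.4 tags per kb in LPS and 277.4 in PBS, above 98.5% and 98.1% of promoters.

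Socs6 (chr18:88865169-88894364) had 298 tags in LPS and 408 in PBS, or 11.1 and 13.7 CPM. PBS was higher (log2 ratio -0.30, -0.52 to -0.08, and -0.30 per covered kb), near the median promoter. The LPS library split the mark into 2 peaks of 212 and 86 tags and the PBS library listed 1 peak, yet the covered lengths differed by only 2 bp. A window of 0.5 kb missed the smaller LPS peak and gave -0.79.

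**Figure D2:**
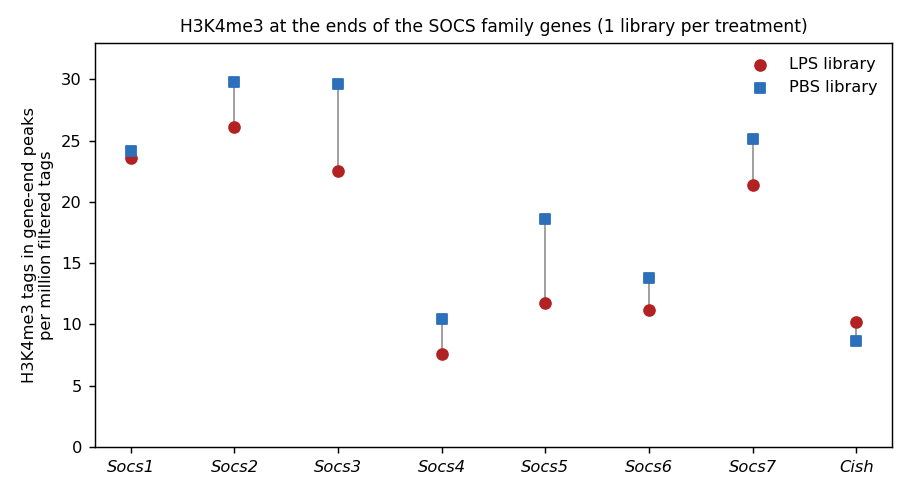
H3K4me3 tags in gene-end peaks, scaled to filtered tags (CPM, y axis) for the 8 SOCS family genes, with 1 library per treatment (circles LPS, squares PBS) and no error bars. Cish is the only gene with the LPS circle above the PBS square (10.2 against 8.66), and Socs1 is nearly level (23.6 against 24.2).

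By tags per filtered tag Cish was the only member higher in LPS, and scaled by all tags Socs1 was higher too (0.07). The median log2 ratio was -0.27 for the members (quartiles -0.41 and -0.15) and -0.36 for all promoters (quartiles -0.53 and -0.22). Relative to the median promoter, 5 members were higher and 3 lower, with Cish at 0.60, Socs1 at 0.33, Socs2 at 0.17, Socs7 at 0.13, Socs6 at 0.06, Socs3 at -0.03, Socs4 at -0.09 and Socs5 at -0.30. The interval lay wholly below 0 for 6 members, where 68.3% of all promoters did so, and above 0 for none, where 2.48% did. It lay wholly above the median promoter for 3 members, Cish, Socs1 and Socs2 (13.4% of promoters), and below it for 1, Socs5 (13.3%). Counting intervals narrow with more tags, and the median member held 443.5 tags in LPS against 200 over all promoters. The shares beside these intervals are therefore not from promoters of like depth. No member was 2-fold higher in LPS (0.37% of promoters whose libraries summed to 100 tags or more) or 2-fold lower (3.65%). In order of their ratios, Cish, Socs1, Socs2, Socs7, Socs6, Socs3, Socs4 and Socs5 each had an interval that overlapped that of the next. Intervals were apart in 11 of the 28 pairs of members. Pairs of other promoters were not counted, so this does not show that the family varied more than other genes.

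**Figure D3:**
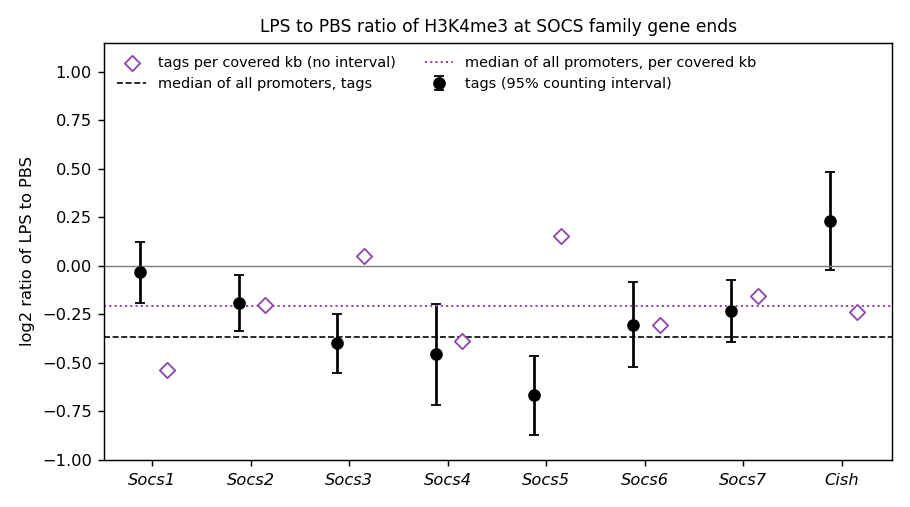
Log2 ratio of LPS to PBS H3K4me3 (y axis) for each gene, from tags (filled circles, bars are 95% counting intervals) and from tags per covered kb (open diamonds), with the medians of all promoters as dashed and dotted lines. By tags Cish is highest (0.23) and Socs5 lowest (-0.67), while per covered kb Socs5 is highest (0.15) and Socs1 lowest (-0.54).

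Per covered kb the order was largely turned over. The median was -0.22 for the members and -0.21 for all promoters, with 4 members above and 4 below it. Socs1, whose peak was longer in LPS, was lowest, and Socs5 and Socs3, whose peaks were longer in PBS, were highest. Covered length was greater in LPS for 4 members, Socs1 (by 1133 bp), Cish (781 bp), Socs2 (30 bp) and Socs6 (2 bp), against 28% of promoters. It was greater in PBS for Socs3, Socs5, Socs7 and Socs4, with LPS minus PBS differences of -1106, -1094, -135 and -80 bp. The ratio of lengths was higher than in 97.1% of promoters at Socs1 and 96.8% at Cish, and at Socs5 only 6.83% of promoters had a lower one. Whole merged regions, in which overlapping peaks of the 2 lists are joined, gave the same ratio as the gene-end peaks for all 8 members.

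**Figure D4:**
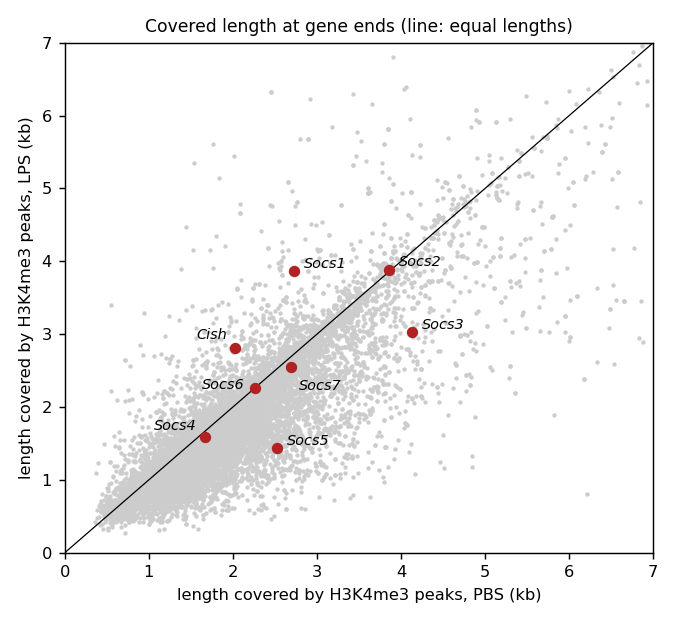
Length covered by H3K4me3 peaks at gene ends, in kb, in the PBS library (x axis) and the LPS library (y axis), for promoters listed in both libraries (grey; 47 beyond 7 kb not drawn) and the SOCS family (red). Socs1 and Cish lie above the line of equal lengths, Socs3 and Socs5 below it.

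H3K4me3 regions away from any annotated gene end, which can include enhancers, were then listed in and within 20 kb of the 8 genes, a distance chosen after the data were seen. There were 17 such regions, 11 in both libraries, 4 in LPS only and 2 in PBS only, and none belonged to Socs1 or Socs4. The same split was not counted over all regions away from gene ends, so it cannot be read as particular to these genes. Both regions with a ratio of 2-fold or more lay upstream of Socs3, in the stretch between it and Pgs1, a gene of phospholipid synthesis. The first, from -7620 to -4932 bp of the Socs3 start (chr11:117974298-117976986), held 201 LPS tags against 94 PBS tags (log2 ratio 1.25, 0.89 to 1.62). The other, from -10444 to -8589 bp (chr11:117977955-117979810), had 148 and 57 tags (1.53, 1.08 to 1.99). LPS was the higher library at both, while it was the lower one at the gene end of Socs3.

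The LPS peaks at these sites were also longer, 2.69 against 1.54 kb and 1.74 against 0.82 kb, and per covered kb the ratios were 0.44 and 0.43. Joined across gaps of up to 1 kb they formed 1 region with a ratio of 1.36. Of 4538 regions away from gene ends with at least 100 tags, 1.28% were 2-fold higher in LPS, and their median ratio was -0.25. A further region, 9253 to 11264 bp downstream of the start, was listed in LPS only, with 144 tags over 2.01 kb, as were 5.29% of the regions with at least 100 LPS tags. A region about 19 kb downstream was level (118 and 132 tags, -0.01, -0.38 to 0.36). The authors' scores of the peaks in both upstream regions and of the LPS-only peak were low, from 63.9 to 107.6, so with peaks of score 100 or more neither upstream region had a ratio and the LPS-only region was gone.

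**Figure D5:**
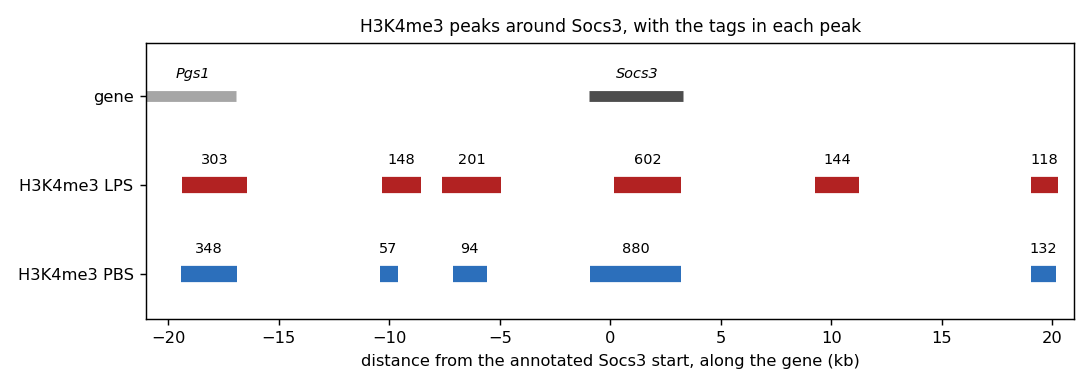
H3K4me3 peaks of the LPS and PBS libraries around Socs3, by distance from its annotated start in kb along the gene (x axis), with the tags in each peak above its bar. Upstream of the gene the LPS peaks hold 148 and 201 tags and the PBS peaks 57 and 94, whereas the peak on the gene holds 602 and 880.

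Beside Cish, a region 10884 to 11930 bp past the start held 68 LPS tags against 45 PBS tags (log2 ratio 0.75, 0.18 to 1.32). The 3 other regions near Cish had intervals that included 0, 2 of them within the neighbouring kinase gene Mapkapk3. Within Socs2 a weak region about 22 kb from the chosen end had 26 and 48 tags (-0.73, -1.48 to -0.02), and another was listed in LPS only with 28. Within Arhgap23, downstream of Socs7, a region had 340 and 493 tags (-0.39, -0.59 to -0.18), and within Gpr179, upstream of it, another had 80 and 61 (0.54, 0.04 to 1.05). Within Socs7 a region of 50 tags was listed in PBS only, and within Socs6 one of 30 tags in LPS only. The peaks listed in 1 library there hold few tags, where the weakest H3K4me3 peak in either list held 17.

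H3K9me3 on the gene bodies was sparse. A peak was listed on 4 of 8 members in LPS, Socs1, Socs2, Socs5 and Socs7, where 19.3% of genes in the length range of the members had one. In PBS it was 2 of 8, Socs5 and Socs7 (15.8%). Socs3, Socs4, Socs6 and Cish had no peak in either library. In all there were 6 peaks in LPS, with 13 to 60 tags, and 3 in PBS, with 15 to 25 tags.

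The largest was on Socs1, in LPS only, with 60 tags over 810 bp (chr16:10784252-10785061) and a score by the authors' caller of 120.1. It lies in the body of the gene, inside the H3K4me3 peak. On Socs7 both libraries had a peak just inside the lower end, with 51 tags in LPS and 25 in PBS, and LPS had 2 more of 13 and 15 tags within the gene. On Socs2 the single LPS peak held 22 tags. These 3 genes were the members with an H3K9me3 peak that overlapped gene-end H3K4me3 by at least 1 bp in LPS, 3 of 8 against 23.2% of promoters. Socs7 was the only one in PBS (18.2%). With so few members and peaks of this size, these counts cannot be read as a difference from other genes.

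On Socs5 the 2 marks met inside the gene, away from its ends. At about 18 kb from the lower end both H3K9me3 lists had a peak (35 tags in LPS, 21 in PBS) within an H3K4me3 region of 26 tags in each library. A second site 22 kb into the gene had H3K4me3 in LPS only (24 tags) and H3K9me3 in PBS only (15 tags). Genome-wide, 33.7% of the H3K9me3 peaks met an H3K4me3 peak in LPS and 22.4% in PBS. No control library was used in calling, and the part of local background in such shared sites was not tested. The header of each list gives a fragment length estimate of 71 bp (LPS) and 66 bp (PBS) for H3K9me3, against 149 and 142 bp for H3K4me3, and how this bears on the peaks was not tested.

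The partners of the SOCS proteins were described by lists chosen with earlier results of these data known, and by counts only. All 4 Janus kinase genes had H3K4me3 at a gene end in both libraries, with ratios from -0.52 at Jak2 (429 tags in LPS, 682 in PBS) to -0.22 at Jak3 (246 and 317) and a median of -0.31. Of 7 STAT genes, 6 were listed in both and Stat4 in neither, with a median of -0.31. Stat5a and Stat5b, the factors of growth hormone and interleukin 2 family signals, share 1 peak, which held 448 LPS and 423 PBS tags (0.23, 0.04 to 0.43). Its length was 3.81 and 2.58 kb, and per covered kb the ratio was -0.33. Stat2, a factor of type I interferon signals, was lowest with 96 and 155 tags (-0.54, -0.92 to -0.16).

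Of 7 genes of the Elongin and Cullin 5 ligase, which the SOCS box recruits, 6 were listed in both libraries and Arih2 in neither. Their median was -0.52, with 1 of 6 above the median promoter, but per covered kb it was -0.18, against -0.21 for all promoters. Ube2f, which attaches NEDD8 to Cullin 5, was highest (311 and 392 tags, -0.18), and Rnf7, the RING subunit, lowest (136 and 243 tags, -0.69, or 0.01 per covered kb).

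Of 20 cytokine receptor genes, 18 were listed in both libraries, 1 (Lepr) in PBS only and 1 (Lifr) in neither, with a median of -0.28. The prolactin receptor Prlr was highest among those with 100 tags (77 and 69, 0.31, -0.18 to 0.80). The interferon gamma receptor chain Ifngr1 was lowest (131 and 279, -0.94, -1.25 to -0.64), and came to 0.03 per covered kb. Of 13 other inhibitors of the pathway, 11 were listed in both, with a median of -0.37. Pias1, a SUMO ligase, was highest (334 and 436 tags, -0.23) and Pias4 lowest (198 and 470, -1.10, -1.34 to -0.85), the latter 0.24 per covered kb. Usp18, a brake on the interferon receptor, was listed in PBS only, with 126 tags. Of 27 other genes with a SOCS box, 16 were listed in both, 2 in LPS only and 9 in neither, with a median of -0.40. Spsb4 was highest (434 and 560 tags, -0.22), and Spsb2 lowest (343 and 1063, -1.48, -1.66 to -1.30), the latter -0.55 over its merged region and -0.09 per covered kb. By gene-end tags Pias4 and Spsb2 were the only genes of these lists, with at least 100 tags and listed in both libraries, that differed by 2-fold or more, and per covered kb neither did. Both were lower in LPS, 1 of 11 such genes among the other inhibitors and 1 of 16 among the other SOCS box genes. Of all promoters with that many tags, 3.65% were 2-fold lower and 0.37% higher, and with so few genes these counts cannot be read as a difference.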

How the data were processed

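Per the file headers, the authors ran MACS 1.4.2 on every library by itself and without a control library, at a p threshold of 1e-05 and at most 1 tag kept per position. The submitters' processing notes also name CASAVA 1.4, Bowtie 0.12.8, DiffBind and the build mm10, with no role given. Each deposited list gives the tag count of a peak, a score (minus 10 times the base 10 logarithm of the caller's p-value) and a fold enrichment, the caller's ratio of peak to local background, which was not used.

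Genes came from a RefSeq table of GRCm38.p6, the same build. It gives outer ends without strand, and annotated starts and strands came from the RefSeq promoter table. Tag counts were summed over peaks that touched a window of 1 kb around the chosen gene end (at least 1 bp) and divided by the filtered tags. Ratios carry exact Clopper-Pearson intervals. Peaks of both H3K4me3 lists were merged where they overlapped or touched, and H3K9me3 peaks were assigned to gene bodies. Alternatives were other windows, the annotated start, peaks of score 100 or more, all tags as scale, the median promoter as 0, tags per covered kb and other merging. Named genes were all 8 members and, of each pathway list, the highest and lowest ratio among genes whose libraries summed to 100 tags or more, and genes of 1 list only with 100 tags. The members and lists were chosen with earlier results of these data known. Python 3.11.15 and scipy 1.17.1 were used. On simulated peak lists of 2000 genes, 95.95% of the intervals held the ratio put in. Each simulated gene had 1 peak of fixed length in both lists and counting error only. Missing or split peaks, changes of peak length and variation between libraries were therefore not covered.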

Additional observations from a re-analysis of the deposited data

How the results depend on the processing

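No group had a replicate, so no library could be left out, and no paired analysis was possible because each group held 1 library. Scaled by all tags instead of filtered tags, the median log2 ratio of the SOCS genes was -0.17 and that of all promoters -0.26, and Socs1 came to 0.068. With the median promoter set to 0, a shift by 1 constant, the family's median changed sign, to 0.10, as did Socs1 (0.33), Socs2 (0.17), Socs6 (0.061) and Socs7 (0.13). Per covered kb the sign changed at Socs3 (0.052), Socs5 (0.15) and Cish (-0.24), both at gene ends and over merged regions, and among other genes, for which this was added after seeing the data, at Stat5a (-0.33), Rnf7 (0.015), Ifngr1 (0.034) and Pias4 (0.24). Per covered kb the median was -0.21 for all promoters, -0.18 for the Elongin and Cullin 5 ligase, -0.21 for the other inhibitors of the pathway and -0.18 for the other SOCS box genes. At annotated starts, known for 4 members, all 4 were listed in both libraries, and the median of all promoters was -0.37. With scores of 100 or more, 3 members had an H3K9me3 peak in LPS and 1 in PBS. Counts of members past 2-fold were 0 in each direction under the alternatives run. Of the single-gene values of the members under the alternatives, 66 stayed within their counting interval, 11 left it, and 7 more changed sign from a value whose interval excluded 0. Many of the other windows and mergings took the same peaks and so returned the same ratio. Values per covered kb were counted at gene ends and again over merged regions. These counts therefore do not measure how stable the ratios are.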
